A study of Oncorhynchus mykiss with 24 samples.

Results

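Fatty acid-binding proteins were represented on the salmonid cDNA array by 41 of 16028 expressed sequence tags (ESTs), chosen because the description printed for the spot in the scanner files contains that name. The descriptions gave 14 ESTs of the liver form, 10 of the intestinal form, 7 of the heart form, 6 of the brain form and 4 of the adipocyte form. Each of the 41 had 1 spot per array, and each spot is called a feature here. Of these, 34 features were bright enough to be tested, namely 12 liver, 6 intestinal, 7 heart, 6 brain and 3 adipocyte features. The others were above the negative control spots in too few channels, where a channel is 1 embryo's signal in 1 dye. In all counts of channels, one whose spot was marked poor gave no value and counted as not above the controls. These were the liver features CB486570 and CB488623, the intestinal features CA044478, CB503762, CB517047 and CK990897, and the adipocyte feature CB491550, which was above the controls in 0 of 48 channels.

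Fatty acid-binding proteins are small cytosolic proteins that hold long-chain fatty acids and related lipids in an internal cavity and carry them between membranes, enzymes and nuclear receptors. The tissue names come from mammals, where the liver form is abundant in hepatocytes and the gut lining, the intestinal form in enterocytes, the heart form in cardiac and skeletal muscle, the brain form in radial glia and neural progenitors, and the adipocyte form in fat cells and macrophages. A trout embryo lives on yolk lipid until it feeds. The forms belong to 1 gene family, so a cDNA spot may also have bound transcripts of a close relative, and several features with the same description may report the same gene.

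The study had designed a quantitative PCR assay for the liver form, and its primer pair is shown because it is the only sequence of a family member at hand. Which EST the primers were designed on was not stated. The sequences run 5′ to 3′, and nothing in them is capitalised.
L-FABP forward primer: gaccacttcaaggtgactgtc
L-FABP reverse primer: gtgttgacgagggtgtttgc
The primers were 21 and 20 bases long.

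RNA came from whole single rainbow trout embryos at 15, 19 and 28 days post fertilization (dpf), all from an advanced backcross between clonal lines. The backcross segregated for a development rate QTL (a chromosome region linked to a measured trait). There, OSU/CW embryos carried 1 allele of the fast-developing Clearwater (CW) line and 1 of the slow-developing Oregon State University (OSU) line, and OSU/OSU embryos carried only the OSU allele. The genotype came from markers linked to the QTL, so it stands for a chromosome segment and not a single gene, and sex was assigned with a Y-linked marker. Each of the 12 groups (female or male, OSU/CW or OSU/OSU, 3 ages) held 4 embryos, and each of the 24 arrays set an OSU/CW embryo against an OSU/OSU embryo of the same sex and age. Genotypes were therefore compared within arrays and sexes between arrays. OSU/CW carried Cy5 on 2 of 4 arrays per sex and age, except at 15 dpf, where it did so on 3 of 4 female and 1 of 4 male arrays.

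Values are log2 intensities after background correction and normalization, and levels of different spots are not set against each other. The median ratio of signal to local background was 1.52, 1.73 and 2.45 at 15, 19 and 28 dpf, and the median share of ESTs above the negative controls was 46.4%, 53.5% and 58.6%. That share ranged over single channels between 28.2% and 68.6% at 15 dpf, 22.5% and 77.8% at 19 dpf, and 40.2% and 83.4% at 28 dpf. By sex its median was 43.4% in females and 49.3% in males at 15 dpf, 50% in females and 59.3% in males at 19 dpf, and 67.8% in females and 57.1% in males at 28 dpf. Since whole embryos were used, fewer cells of a type and less RNA per cell cannot be told apart. The features are named by EST because none of the 41 identifiers matched the RefSeq gene table, which names 5 family members as fabp2, fabp3, fabp4b, fabp7b and fabph.

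The members were mostly higher in older embryos. Of the 34 tested, 20 rose and 0 fell in 28 dpf embryos against 15 dpf embryos (58.8% higher), beside 17.9% higher and 19.9% lower (37.8% in all) among all 11439 tested features (limma, Benjamini-Hochberg adjusted p below 0.05). In 19 dpf embryos against 15 dpf embryos, 7 rose and 0 fell, beside 2.22% and 0.332% of all features (2.55% in all). In 28 dpf embryos against 19 dpf embryos, 11 rose and 0 fell, beside 7.46% and 9.11% of all features (16.6% in all). Without a step that puts the arrays on 1 scale, 28 against 15 dpf gave 10 members higher and 4 lower. Of all 11439 features, 434 were then higher and 4441 lower. The 3 comparisons share embryos and are not independent of each other. The median difference of the members for 28 against 15 dpf was 0.76 on the log2 scale, against -0.02 over all features.

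Intestinal and liver features made up most of these calls. For 28 against 15 dpf, 6 of 6 intestinal features rose (median difference 1.39), as did 9 of 12 liver features (0.90), 3 of 6 brain features (0.50), 2 of 7 heart features (0.22) and 0 of 3 adipocyte features (0.42). Of the brain features, 3 of 6 rose in 19 against 15 dpf embryos, with a median difference of 0.70. In 28 against 19 dpf embryos 1 of 6 rose and the median was -0.21. The median of the liver form was 0.35 for 19 against 15 dpf and 0.59 for 28 against 19 dpf, and that of the intestinal form 0.47 and 0.88. Whether one form changed more than another was not tested. The counts cover only features that passed the detection filter, 6 of 10 intestinal and 12 of 14 liver features. Some, CB493070 and CA769320 among them, passed mainly or only through later ages, so their calls are no separate support for a rise. Of the untested intestinal features, mostly not above the controls, CA044478 (9.69 to 9.45) and CB517047 (10.24 to 10.01) had lower means at 28 than at 15 dpf. Those of CB503762 (9.21 to 9.68) and CK990897 (8.40 to 9.33) were higher. Both untested liver features had lower means at 28 than at 15 dpf, CB488623 (11.15 to 9.82) and CB486570 (9.70 to 9.54). They were above the controls in 15 and 10 of 48 channels.

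**Figure D1:**
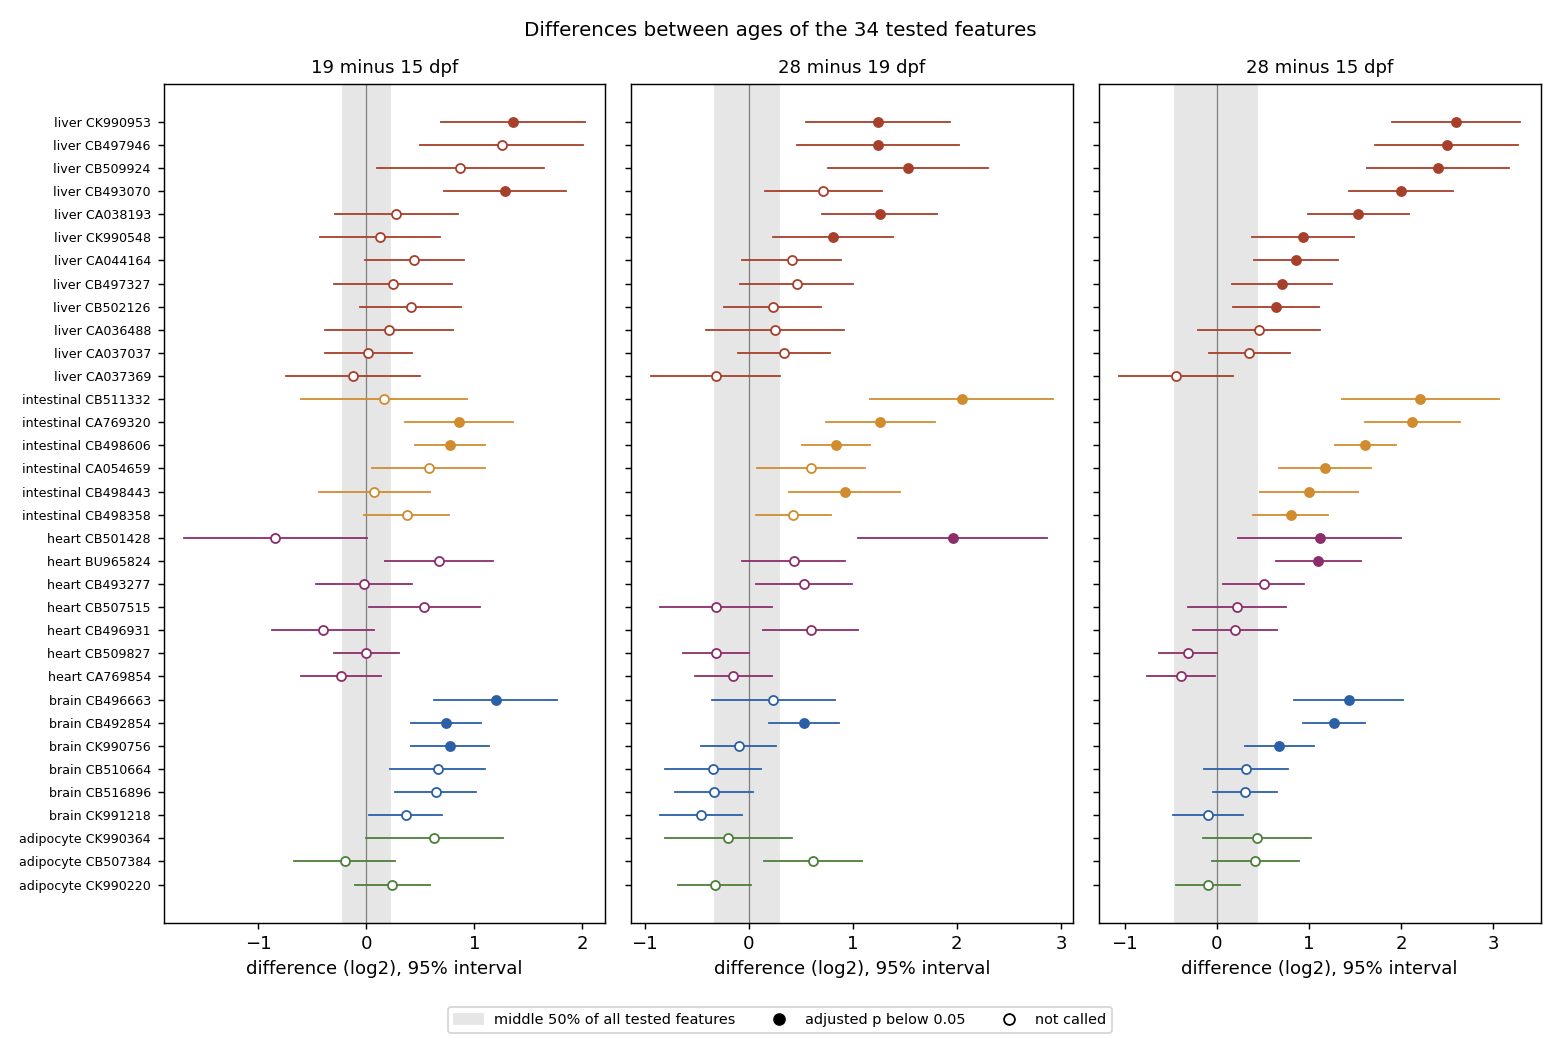
Differences in log2 intensity between ages for the 34 tested features (rows, grouped and coloured by tissue form), with 95% intervals, filled points for adjusted p below 0.05 and grey bands for the middle 50% of all tested features. In the right panel all 6 intestinal points and 9 of 12 liver points are filled, and no filled point lies below 0 in any panel.

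Among the liver features, CK990953 had the smallest p for 28 against 15 dpf. Its lowest, median and highest log2 intensities were 8.60, 9.25 and 10.59 in 15 dpf embryos, 10.02, 10.89 and 11.67 in 19 dpf embryos, and 10.38, 12.14 and 13.11 in 28 dpf embryos. It was above the controls in 2, 11 and 13 of 16 channels at these ages, so most 15 dpf values were not above background. Adjacent ages overlapped, and 1 embryo at 28 dpf lay within the 15 dpf range. The difference was 2.60 ± 0.34 on the log2 scale (SE) for 28 against 15 dpf (adjusted p = 1.8e-07), set against a 15 dpf level at background in 14 of 16 channels, and CK990953 was called at both steps, with 1.36 for 19 against 15 dpf and 1.24 for 28 against 19 dpf.

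Another 4 liver features rose by more than 1 on the log2 scale. CB497946 had medians of 9.90, 10.91 and 12.34 at 15, 19 and 28 dpf and was higher in 28 dpf embryos than in 15 dpf embryos by 2.50 ± 0.38 (adjusted p = 5.43e-06). It was above the controls in 3, 12 and 11 of 16 channels at these ages. CB509924, with medians of 9.80, 10.67 and 12.18 and 1, 10 and 15 of 16 channels above the controls, was higher by 2.40 ± 0.38 (adjusted p = 4.74e-06). For both features the 15 dpf level was near background, so the size of the difference is uncertain. The lowest 28 dpf embryo for CB497946, at 10.87, lay above the highest 15 dpf embryo, at 10.42, while for CB509924 the ranges met between 10.85 and 11.04. CB493070 was above the controls in 0 of 16 channels at 15 dpf, 8 of 16 at 19 dpf and 12 of 16 at 28 dpf. Its differences are therefore of uncertain size. It passed the detection filter only through the later ages, so its calls are no separate support for a rise. It was 3.98-fold higher at 28 dpf than at 15 dpf (adjusted p = 3.87e-07), and 2.42-fold higher at 19 dpf than at 15 dpf (adjusted p = 0.00384). These folds set the mean of the brighter age against the dim spot's own signal or the lowest signal above the controls on that array, whichever was higher. They are not lower limits.

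CA038193 rose late. Its lowest, median and highest values were 9.04, 10.33 and 12.26 at 15 dpf, 9.64, 10.76 and 12.54 at 19 dpf, and 11.05, 12.10 and 12.77 at 28 dpf. It was above the controls in 4, 6 and 16 of 16 channels at these ages. Most values at 15 and 19 dpf were thus not above background, so the sizes of its differences and the timing of the rise are uncertain. CA038193 passed the detection filter only through the 28 dpf channels, so its calls are no separate support for a rise. The difference for 28 against 15 dpf was 1.54 ± 0.27 (2.90-fold, adjusted p = 3.23e-05), made up of 0.28 for 19 against 15 dpf (adjusted p = 0.693) and 1.26 for 28 against 19 dpf (adjusted p = 0.00138).

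The remaining liver features changed less or did not pass the test. CK990548 (0.94, adjusted p = 0.00642), CA044164 (0.86, 0.00278), CB497327 (0.71, 0.0346) and CB502126 (0.64, 0.0253) were higher in 28 dpf than in 15 dpf embryos, all with overlapping ranges. CK990548, with medians of 12.25, 12.15 and 13.31 at the 3 ages, was also called for 28 against 19 dpf, with an adjusted p of 0.0437. CA044164 was above the controls in 16, 14 and 14 channels at the 3 ages and CB502126 in 13, 16 and 16. CA036488, described as fatty acid-binding protein 1 of liver, differed by 0.46 (adjusted p = 0.272), CA037037 by 0.36 (0.202) and CA037369 by -0.44 (0.264). Thus 3 of 12 features with a liver description, 1 of them with a mean below that at 15 dpf, did not pass the test.

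**Figure D2:**
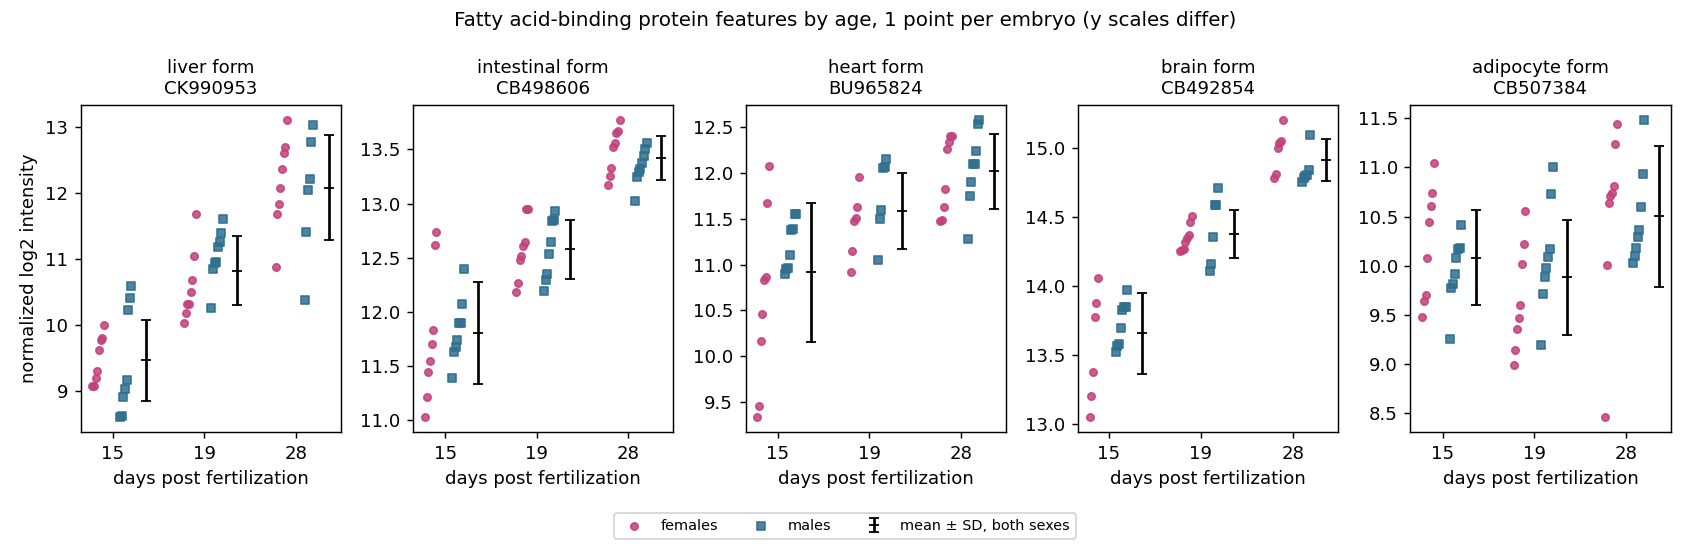
Normalized log2 intensity of 1 feature per tissue form at 15, 19 and 28 dpf, 1 point per embryo (circles females, squares males), with mean ± SD over both sexes and a separate y scale in each panel. The 28 dpf points of CB498606 and CB492854 lie above all of their 15 dpf points, whereas those of the adipocyte feature CB507384 overlap at all ages.

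In the intestinal form, the 28 dpf embryos stood apart for CB498606. It had lowest, median and highest values of 11.03, 11.73 and 12.74 at 15 dpf, 12.18, 12.57 and 12.95 at 19 dpf, and 13.02, 13.41 and 13.78 at 28 dpf. All 16 embryos at 28 dpf were above all 16 at 19 dpf and all 16 at 15 dpf, while the 19 and 15 dpf embryos overlapped between 12.18 and 12.74. The SD over embryos was 0.47 at 15 dpf, 0.27 at 19 dpf and 0.20 at 28 dpf. CB498606 was 3.06-fold higher in 28 dpf than in 15 dpf embryos (1.61 ± 0.16, adjusted p = 1.54e-10), with 0.77 for 19 against 15 dpf and 0.84 for 28 against 19 dpf, both called.

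CA769320 was not above the controls in any 15 dpf channel, and was so in 5 of 16 channels at 19 dpf and 13 of 16 at 28 dpf. All 14 measured embryos at 28 dpf, between 10.74 and 12.32, lay above the highest 15 dpf embryo at 10.33. By the measure used for CB493070, it was 4.29-fold higher at 28 dpf than at 15 dpf (adjusted p = 2.42e-08). At 19 dpf it was 1.79-fold higher than at 15 dpf with an adjusted p of 0.049. Neither fold is a lower limit, and both are of uncertain size. CA769320 too passed the detection filter only through the later ages, so its calls are no separate support for a rise. The 19 dpf call did not hold when any of 18 of the 24 arrays was left out, where the adjusted p reached 0.114.

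The other 4 intestinal features were also higher at 28 dpf. CB511332 was uneven: its 28 dpf values were between 10.03 and 14.10 with a median of 13.75, the lowest being 10.03 and 11.47 on male array 37 while male array 28 gave 14.07 and 14.01. Its medians were 10.88 at 15 dpf and 10.93 at 19 dpf, and 6 of the 16 channels at 28 dpf were marked poor and left out. The difference for 28 against 15 dpf was 2.21 ± 0.42 (adjusted p = 0.000102) with all arrays and 1.39 without male array 28. For 28 against 19 dpf it was 2.05, and 1.22 without that array, still called. CA054659 was 2.26-fold higher in 28 dpf than in 15 dpf embryos (1.17 ± 0.25, adjusted p = 0.000295), with medians of 11.58, 12.32 and 13.01 at the 3 ages. CB498443 differed by 0.998 ± 0.263 (adjusted p = 0.00276), and CB498358 differed by 0.80 ± 0.20 (adjusted p = 0.00176). CB498443 differed by 0.92 for 28 against 19 dpf and by 0.08 for 19 against 15 dpf, while CB498358 was spread over both steps, neither of which was called. CB498443 was above the controls in 5, 7 and 12 of 16 channels at the 3 ages. Most of its 15 and 19 dpf values were therefore not above background, and the size and timing of its rise are uncertain. CB498443 was not called for 28 against 19 dpf without female array 39, where the adjusted p was 0.0564.

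Heart features moved apart from each other. BU965824, which had the smallest p among them, had lowest, median and highest values of 9.33, 10.96 and 12.08 at 15 dpf, 10.91, 11.55 and 12.15 at 19 dpf, and 11.28, 12.10 and 12.58 at 28 dpf. It was 2.15-fold higher in 28 dpf than in 15 dpf embryos (1.10 ± 0.23, adjusted p = 0.000226), and neither step alone was called. CB501428 varied widely between embryos, with SDs of 1.17, 1.52 and 0.88 at 15, 19 and 28 dpf and medians of 10.90, 10.24 and 12.15. It was higher in 28 dpf than in 19 dpf embryos by 1.96 ± 0.45 (adjusted p = 0.00252) and than in 15 dpf embryos by 1.12 ± 0.43 (adjusted p = 0.0401), and the second of these calls was lost without any of 9 of the 24 arrays, where the adjusted p reached 0.133. The other 5 heart features did not pass the test for 28 against 15 dpf, with CB493277 at 0.51 (adjusted p = 0.0608), CB507515 at 0.22, CB496931 at 0.20, CB509827 at -0.31 and CA769854 at -0.38. CB509827 was a bright spot, above the controls in every measured channel, and its values lay between 12.45 and 13.75 at 15 dpf, 12.51 and 13.76 at 19 dpf, and 12.59 and 13.14 at 28 dpf.

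Of the 6 brain features, 4 were above the controls in every measured channel. CB492854 had lowest, median and highest values of 13.05, 13.73 and 14.06 at 15 dpf, 14.11, 14.35 and 14.71 at 19 dpf, and 14.75, 14.83 and 15.21 at 28 dpf. The 3 ages did not overlap at all in the 14, 14 and 12 embryos measured. The difference was 0.74 ± 0.16 for 19 against 15 dpf (adjusted p = 0.0053), 0.53 ± 0.17 for 28 against 19 dpf (adjusted p = 0.0255) and 1.27 ± 0.17 for 28 against 15 dpf (2.41-fold, adjusted p = 3.61e-07). The 28 against 19 dpf call was lost without male array 19, female array 39 or male array 33, where the adjusted p was between 0.0557 and 0.0568.

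CB496663 and CK990756 rose by 19 dpf and differed little after that. CB496663 was 2.29-fold higher in 19 dpf than in 15 dpf embryos (1.20 ± 0.28, adjusted p = 0.01) and differed by 0.24 between 28 and 19 dpf (adjusted p = 0.628). CK990756 was 1.71-fold higher in 19 dpf than in 15 dpf embryos (0.77 ± 0.18, adjusted p = 0.00799) and differed by -0.10 between 28 and 19 dpf (adjusted p = 0.76). Without female array 14, CK990756 differed by 0.57 between 19 and 15 dpf, with an adjusted p of 0.068. CB510664, CB516896 and CK991218 had their highest means at 19 dpf, with differences of 0.66, 0.64 and 0.36 for 19 against 15 dpf and -0.34, -0.33 and -0.46 for 28 against 19 dpf, none of which passed the test. CK991218 was saturated in 1 channel.

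No adipocyte feature passed the test at any step. CB507384 had a median of 10.08 at 15 dpf, 9.93 at 19 dpf and 10.62 at 28 dpf, and differed by 0.42 ± 0.23 for 28 against 15 dpf (adjusted p = 0.154). CK990364 differed by 0.43 ± 0.29 (adjusted p = 0.244) and CK990220 by -0.09 ± 0.17 (adjusted p = 0.713). The 15 dpf embryos varied more for CK990364 (SD 1.12) than the 28 dpf embryos (SD 0.28).

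Of the 34 tested members, 14 were above the controls in fewer than 8 of 16 channels at 15 dpf. Such features could pass the detection filter mainly through the later ages, so their calls are no separate support for a rise. Among them 10 were higher at 28 dpf than at 15 dpf, beside 29.3% of the 3644 such features of the array. Of the 20 members above the controls in at least 8 channels at 15 dpf, 10 were higher, beside 12.5% of 7795 such features. The part of signal over background in these calls was not tested.

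Tissue markers were matched to spot descriptions. Counting calls in either direction, only the muscle list was called far more often with age than all features. For 28 against 15 dpf, 90.7% of muscle and 43.3% of liver features were called in either direction, beside 37.8% of all features. The shares were 39.1% for the intestinal, 44.4% for the brain, 28.6% for the adipocyte and 33.3% for the yolk list. Muscle markers (troponins, myosins, parvalbumin and creatine kinase) were higher at 28 dpf than at 15 dpf in 77 of 86 features and lower in 1, with a median difference of 2.16, and the mean level per embryo lay between 13.16 and 13.84 in females and 13.46 and 13.83 in males at 28 dpf, against 11.05 and 11.27 in females and 11.13 and 11.39 in males at 15 dpf. Liver plasma proteins were higher in 20 and lower in 6 of 60 features, with a median difference of 0.33. Their calls were thus mostly upward, whereas 17.9% of all features were higher and 19.9% lower. Serotransferrin CB497986, the iron carrier of plasma, was higher by 2.69 and serum albumin CA038058 by 1.85, while complement C3-1 CB514355 fell by 1.37 and another serotransferrin feature, CB496771, fell by 0.52. Features of the intestinal list were higher in 6 and lower in 3 of 23, with apolipoprotein A-IV CB493958, a chylomicron protein of mammals, higher by 3.07. An apolipoprotein B-100 feature, CA043659, was lower with a difference of -0.93. It was listed by the name apolipoprotein B and is not particular to intestine. The median difference of the intestinal list was 0.13. Brain markers were higher in 9 and lower in 15 of 54 features, adipocyte markers higher in 1 and lower in 1 of 7, and yolk markers (vitellogenin and cathepsin D) higher in 1 and lower in 1 of 6. Mean levels per embryo of the liver list lay between 12.17 and 12.76 at 28 dpf and between 11.76 and 12.44 at 15 dpf, and those of the intestinal list between 11.49 and 12.73 at 28 dpf and between 11.27 and 12.16 at 15 dpf. The part of tissue growth in the members' differences was not tested.

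Sex differences were compared within each genotype and age, by the rule of the study's methods (an overall test of the 12 groups, then a false discovery rate of 0.2 over 66 pairwise contrasts of the features that pass, which allowed an unadjusted p of up to 0.1053 here). By that rule, females differed from males in 9 of 34 members in at least 1 of 6 comparisons, beside 9.77% of all features. A difference between ages alone can pass the overall test, which 14% of all features passed. The share over all features is thus not a like measure for members that rose with age. The part of that rise in the members' sex calls was not tested. At 15 dpf, females were higher in 1 and lower in 2 members in OSU/CW embryos, beside 1.35% and 1.51% of all features (2.86% in all), and lower in 3 in OSU/OSU embryos, beside 1.24% lower (2.07% in all). At 19 dpf, females were lower in 2 members in OSU/CW embryos, beside 2.19% lower (5.41% in all), and in 3 in OSU/OSU embryos, beside 1.3% lower (2.94% in all). At 28 dpf, females were higher in 1 member in OSU/CW embryos, beside 0.568% higher (1.13% in all), and in 1 in OSU/OSU embryos, beside 0.734% higher (1.29% in all). With Benjamini-Hochberg adjustment over all features within each comparison, limma called 0 members in any of these 6. In the order above, 5, 4, 1, 3, 0 and 0 members had an unadjusted p below 0.05, beside 753, 553, 1204, 663, 323 and 434 of all 11439 features.

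CA038193 of the liver form was lower in females than in males in all 4 comparisons at 15 and 19 dpf. At 15 dpf its values in OSU/CW embryos were 9.12, 9.35, 10.28 and 10.37 in females, against 10.27, 10.78 and 12.23 in males. In OSU/OSU embryos they were 9.04, 9.17, 9.45 and 10.48 in females, against 10.86, 10.89 and 12.26 in males. Females and males overlapped between 10.27 and 10.37 in OSU/CW embryos and did not overlap in OSU/OSU embryos, and 1 male array had a poor spot and gave no value. The difference, females minus males, was -1.31 ± 0.46 (SE) in OSU/CW and -1.80 ± 0.46 in OSU/OSU embryos, with unadjusted limma p-values of 0.00698 and 0.00036 and Benjamini-Hochberg adjusted p-values of 0.543 and 0.65. None of the 8 female channels was above the controls, against 4 of 8 male channels. The male channels above them were 1 of 4 in OSU/CW and 3 of 4 in OSU/OSU embryos. In each genotype, 1 of the 4 male channels was the unmeasured one and counted as not above, so all measured OSU/OSU males were above. The measured group means of females were 2.49-fold lower in OSU/CW and 3.48-fold lower in OSU/OSU embryos. Since no female channel was above the controls, the sizes of these differences are uncertain, and they leave out the spread between embryos.

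At 19 dpf CA038193 had values of 9.70, 9.88, 10.23 and 10.81 in OSU/CW females, against 10.94, 11.08 and 11.23 in OSU/CW males. In OSU/OSU embryos the values were 9.64, 9.90, 10.38 and 11.11 in females, against 10.70, 10.86 and 12.54 in males. The sexes were separate in OSU/CW embryos and overlapped in OSU/OSU embryos. The differences were -0.93 ± 0.46 in OSU/CW and -1.11 ± 0.46 in OSU/OSU embryos, with unadjusted limma p-values of 0.0487 and 0.0202 and adjusted p-values of 0.469 and 0.822. OSU/OSU females, with 0 of 4 channels above the controls, had a measured mean 2.15-fold lower than that of males, so the size is again uncertain. At 28 dpf all channels were above the controls, and the values were 12.27, 12.33, 12.45 and 12.66 in OSU/CW females, against 11.26, 11.48, 11.62 and 12.77 in OSU/CW males. OSU/OSU females had 11.05, 11.35, 11.97 and 12.15, against 11.37, 12.06, 12.17 and 12.60 in OSU/OSU males. The 28 dpf differences, 0.65 ± 0.42 in OSU/CW and -0.42 ± 0.42 in OSU/OSU embryos, had opposite signs and were not called. Both 19 dpf calls were lost with loess alone (-0.48 and -0.66) and when the overall test was dropped, and the OSU/CW call at 19 dpf was lost with the authors' centred values (-0.87).

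Over both genotypes, CA038193 in females against males differed by -1.56 ± 0.40 at 15 dpf (limma adjusted p = 0.526), -1.02 ± 0.40 at 19 dpf (adjusted p = 0.479) and 0.11 ± 0.37 at 28 dpf (adjusted p = 1). The change of the sex difference from 15 to 28 dpf was 1.67 ± 0.54, with an adjusted p of 0.672, so neither the pooled differences nor their change passed the test over all features. The single-comparison calls rested in part on 1 array: without male array 18 the OSU/CW difference at 15 dpf was -0.72, and without male array 11 the OSU/OSU difference at 19 dpf was -0.52, both no longer called. Without female array 10 or male array 22, the OSU/CW difference at 19 dpf was -0.78 or -0.81 and was not called. The OSU/OSU difference at 15 dpf stayed called without any single array, at -2.11 to -1.36. No other liver feature was called in more than 1 of the 6 comparisons. Liver plasma proteins at 15 dpf were higher in females in 0 and lower in 4 of 60 features in OSU/CW embryos, and higher in 1 and lower in 1 in OSU/OSU embryos, with a mean level per embryo of 11.76 to 12.44 in females and 11.85 to 12.25 in males. Muscle markers at 15 dpf were higher in females in 4 and lower in 15 of 86 features in OSU/CW embryos, and higher in 2 and lower in 11 in OSU/OSU embryos. At 19 dpf they were higher in 0 and lower in 18 in OSU/CW embryos, and higher in 18 and lower in 2 in OSU/OSU embryos. Among all features, the shares called in these comparisons were the 2.86%, 2.07%, 5.41% and 2.94% given above, and the part of the markers in the members' differences was not tested.

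**Figure D3:**
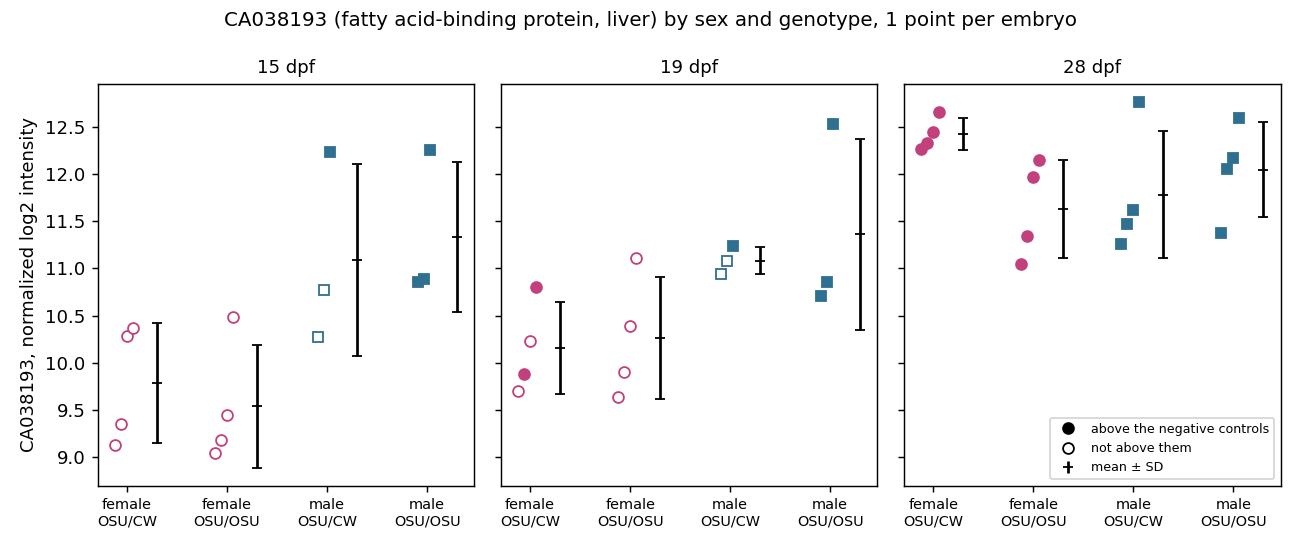
Normalized log2 intensity of CA038193 (fatty acid-binding protein, liver) by sex and genotype at 15, 19 and 28 dpf, 1 point per embryo, with mean ± SD. Open points were not above the negative controls: all 8 female points are open at 15 dpf, and all points are filled at 28 dpf.

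The other sex calls were each in 1 comparison, except for the heart feature CB501428, which was lower in females at 19 dpf in both genotypes. It was above the controls in 7 of 16 channels at that age, so the sizes of these 2 differences are uncertain. CB501428 had 8.30, 9.36, 10.32 and 10.95 in OSU/CW females, against 9.42, 9.99 and 12.79 in OSU/CW males (-1.18 ± 0.70). In OSU/OSU embryos it had 6.76, 8.32, 10.15 and 10.60 in females, against 10.48, 11.04 and 11.59 in males (-1.91 ± 0.70). The sexes overlapped in both genotypes, and the calls were lost without any of 10 arrays in OSU/CW embryos, where the difference was -0.49 without male array 11, and without any of 8 in OSU/OSU embryos. At 15 dpf, the heart feature BU965824 in OSU/OSU embryos had 9.46, 10.16, 10.46 and 11.67 in females, against 11.37, 11.39, 11.55 and 11.55 in males (-1.04 ± 0.37). The female values spanned the male values on both sides, and the call was lost without any of 6 arrays.

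The brain feature CK990756 was lower in OSU/CW females than males at 15 dpf, with 11.45, 12.68 and 13.02 in females, against 13.09, 13.10, 13.33 and 13.43 in males (-0.72 ± 0.30). These did not overlap, but the call was lost without any of 17 arrays, and without female array 14 the difference was -0.25. The adipocyte feature CB507384 was higher in OSU/CW females than males at 15 dpf by 0.89 ± 0.38, with 9.70, 10.07, 10.60 and 11.05 in females, against 9.25, 9.77, 9.91 and 10.18 in males, and that call was lost without any of 20 arrays. At that age CB507384 was above the controls in 3 of 16 channels over both sexes and genotypes. Most of these values were therefore not above background, and the size of the difference is uncertain. The liver feature CB509924 was lower in OSU/OSU females than males at 19 dpf (-1.26 ± 0.62), with 8.22, 9.90, 10.41 and 11.15 in females, against 10.46, 10.67, 11.62 and 11.97 in males. Without female array 15 it differed by -0.58, and it was not called without that array, male array 11 or male array 22.

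Of the remaining calls, 1 concerned levels below background. The intestinal feature CA769320 in OSU/OSU embryos at 15 dpf had 7.96, 8.55, 9.21 and 9.79 in females, against 9.40, 9.84, 10.15 and 10.24 in males, but no channel of either sex was above the controls, so no fold is given. At 28 dpf, the intestinal feature CB511332 in OSU/CW embryos had 12.38, 13.85 and 14.08 in females, against 10.03 and 14.07 in males (1.38 ± 0.76). Without male array 37 that difference was -0.72, and without male array 28 it was 3.45. The liver feature CB493070 in OSU/OSU embryos at 28 dpf had 11.00, 11.69, 11.70 and 12.82 in females, against 9.83, 10.74, 11.25 and 12.23 in males (0.79 ± 0.45). It was 0.31 without male array 33, and the call was lost without that array, male array 37 or female arrays 26 and 36.

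Genotype differences were small. For OSU/CW against OSU/OSU embryos, limma called 0 of 34 members at 15, 19 or 28 dpf or over all embryos, and 0% of all features. Before adjustment, p was below 0.05 in 1, 3, 1 and 1 members, beside 630, 678, 543 and 557 of all 11439 features. The members' differences lay between -0.33 and 0.35 at 15 dpf, -0.28 and 0.62 at 19 dpf and -0.35 and 0.56 at 28 dpf, and their medians were -0.02, 0.07 and 0.05. Tests of sex by genotype at each age, sex by time and genotype by time also called 0 members. An unadjusted p below 0.05 was found for 4, 0, 2, 4 and 0 members, beside 602, 711, 473, 658 and 641 features. After adjustment, limma called 0.00874% of all features, or 1 feature, for sex by time and 0% for the others. Over both genotypes, females against males gave 0 members at 15, 19 or 28 dpf and 0.00874%, 0% and 0.00874% of all features. Here 2, 2 and 0 members had an unadjusted p below 0.05, beside 739, 1009 and 375 features.

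**Figure D4:**
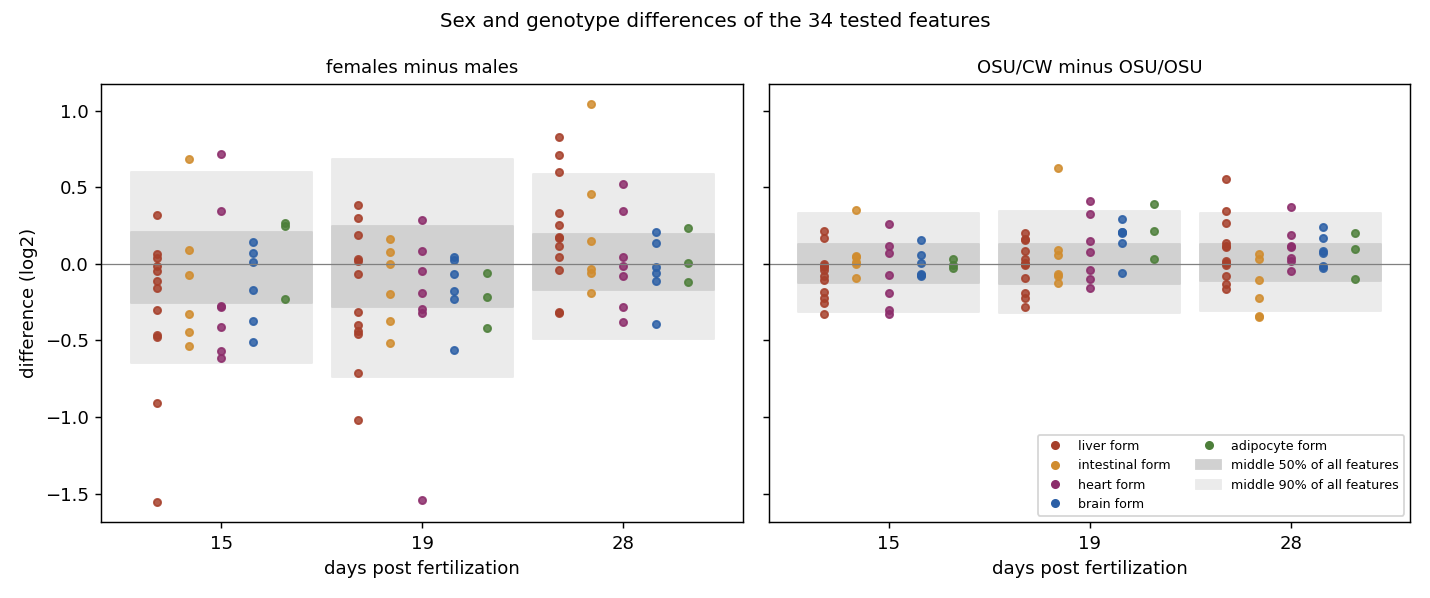
Differences in log2 intensity of the 34 tested features by age, females minus males (left) and OSU/CW minus OSU/OSU (right), coloured by tissue form, with grey bands for the middle 50% and 90% of all tested features. The lowest point of the left panel at 15 dpf is CA038193 at -1.56, and the right panel spans -0.35 to 0.62.

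Features with the same tissue name were only loosely alike across embryos. Over the 48 channels, which share arrays and the age trend, the median Pearson correlation was 0.36 over 120 pairs of the same form and 0.22 over 441 pairs of different forms. After the mean of each age was removed, these medians were 0.14 and 0.06. With the age trend, pairs of intestinal features had a median of 0.59 (0.33 to 0.84), brain pairs 0.41, liver pairs 0.38 (-0.24 to 0.86) and heart pairs 0.10 (-0.52 to 0.45). Without it, these medians were 0.06 for intestinal, 0.20 for brain, 0.15 for liver and -0.001 for heart pairs.

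The other features whose profile over embryos was most like that of CA038193 were glyceraldehyde-3-phosphate dehydrogenase CB510408 (r = 0.79, 42 embryos), beta-enolase CB492725 (0.79, 44), the homeobox protein CDX-1 CB496649 (0.76, 44), adenylosuccinate synthetase isozyme 1 CB494290 (0.76, 40) and fructose-bisphosphate aldolase A CB514705 (0.75, 40). Those most like the heart feature BU965824 were cyclin-Y CA037966 (0.86, 38), ubiquitin carboxyl-terminal hydrolase isozyme L5 CB510732 (0.85, 44), CB493147, whose description names a plant clone (0.85, 42), glutathione S-transferase kappa 1 CB494642 (0.83, 36) and engulfment and cell motility protein 1 CA064179 (0.83, 36). All of these correlations include the age trend and shared arrays.

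Other genes of fatty acid handling were called in both directions with age, at shares near or below those of all features. For 28 against 15 dpf, genes of fatty acid uptake and lipoproteins were higher in 7 and lower in 10 of 58 features, and genes of beta-oxidation, the mitochondrial and peroxisomal breakdown of fatty acids, higher in 2 and lower in 6 of 21, with median differences of 0.03 and -0.35. In all, 29.3% of the uptake and 38.1% of the beta-oxidation features were called, beside 37.8% of all features. Acyl-CoA binding and activation had 2 higher and 2 lower of 17 (23.5%), the retinoid-binding relatives of the family 0 of 5 in either direction, with 2 of the 5 at an unadjusted p below 0.05, and the lipid-sensing nuclear receptors 1 higher of 4. Apolipoprotein A-IV CB493958 (3.07, adjusted p = 9.84e-13) and the 14 kDa apolipoprotein CB498079 (1.30, 7.17e-05) had the smallest p among uptake genes. Among beta-oxidation genes, these were carnitine O-palmitoyltransferase II CB512295 (-2.07, 1.97e-05) and the putative acyl-CoA dehydrogenase CB501058 (-1.41, 0.00031). Acyl-CoA-binding protein CB493696 was higher by 0.94 (adjusted p = 0.00421), and acyl-CoA-binding domain-containing protein 7 CB490752 fell by 0.53 (0.0102). Peroxisome proliferator-activated receptor gamma CA043922, the fat-cell receptor of mammals, was higher by 1.15 (adjusted p = 0.000462), and the retinoid X receptor RXR-gamma CB514936 differed by -0.37 (0.157). The cellular retinol-binding protein II features CB496593 (0.66, adjusted p = 0.0768) and CA768293 (-0.31, 0.0834) did not pass the test. Of the uptake list, apolipoproteins A-I, A-IV and B also stand among the liver and intestinal markers above.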

How the data were processed

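The authors deposited, for each of 24 arrays and each dye, linear, uncorrected intensity values for the spots and for the local background around them. Total RNA of 1 embryo per channel had been labelled with Cy3 or Cy5, and the image software is not given in the sources used here. They also deposited a score per array for 10153 spots, which matched the quotient of the mean-centred log intensities of the channels with its sign set by dye orientation. Its log base is unknown, its column medians lay between -1.10 and 1.07, and it was not tested, but the centred values were rebuilt as an alternative.

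Intensities were background-corrected (normexp, offset 50) and normalized with loess within arrays and quantile normalization of the average intensity between arrays (limma 3.58.1, R 4.3.3). Spots marked poor (189 to 1446 per array) were left out, and spots of 1 EST were averaged. A channel counted as above background when its signal exceeded the 90th percentile of 1003 negative control spots. Channels with a poor spot counted as not above it. Features so detected in at least 16 of 48 channels, with at least 2 arrays per sex and age, were tested, 11439 in all. The limma model took the 12 groups and the dye as fixed terms and each array as a random block (correlation 0.53), as in the methods' mixed model, with Benjamini-Hochberg adjustment over all tested features. The median SE was 0.24 for a time difference and 0.39 for a sex difference within genotype, and the number of arrays limits the precision. All embryos came from the same backcross between clonal lines, so p-values measure the spread between these embryos. The fit was tested on simulated data.

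The members, the marker and lipid lists and the rule for named features (every member, those most correlated with CA038193 and with the leading heart feature, and the 2 smallest p of each lipid list) were chosen with earlier results of these data known. Alternatives varied the background correction, scaling, filters, dye term, arrays in the fit, error rate and single arrays. A filter on detection in all 48 channels left no member, so it gave no counts for the members.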

Additional observations from a re-analysis of the deposited data

Results flagged for a closer look

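In 1 of 82 groups of 4 embryos looked at, an embryo stood far from the others of its group. The heart feature BU965824 in OSU/CW females at 28 dpf was 11.49 on array 26, against 12.26 to 12.41 in the other 3 embryos, a gap of 0.838 of the group's range. Chance alone gives about 1 such embryo in 20 groups.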

How the results depend on the processing

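Of the members' calls, 20 higher for 28 against 15 dpf became 10 with loess alone, where the median of all features moved to -0.54, and lower calls became 4 with loess alone, 1 with no detection filter, 1 with poor spots kept and 2 at an FDR of 0.2. For 19 against 15 dpf, 7 higher became 4 without background subtraction, 3 with the authors' centred values rebuilt, 1 with loess alone and 11 at an FDR of 0.2. For 28 against 19 dpf, 11 higher became 7 without background subtraction, 2 with loess alone and 17 at an FDR of 0.2, and 0 lower became 8 with loess alone and 3 at an FDR of 0.2. With loess alone, 434 of all 11439 features were higher and 4441 lower for 28 against 15 dpf. These counts were 96 and 0 for 19 against 15 dpf and 145 and 4605 for 28 against 19 dpf. Over arrays left out in turn, higher calls of members were 18 to 22, 6 to 8 and 9 to 13 for the 3 comparisons in the order first given. Their lower calls for 28 against 15 dpf were 0 to 1. The cause was not tested.

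Sex calls depended on the rule. Using only the arrays of that time point, or Benjamini-Hochberg adjustment within the comparison, 0 members were called in any of the 6 comparisons, and 9 members in any became 3 without background subtraction, 1 with loess alone, 4 when the overall test was dropped, and 4 to 11 over arrays left out in turn (5 without female array 15 and 4 without female array 26 or 36 or male array 33 or 37). OSU/CW at 15 dpf, 1 higher and 2 lower, gave 0 higher without background subtraction, with the centred values, loess alone, no detection filter, no dye term or the overall test dropped, 3 higher with poor spots kept, and 1 lower with loess alone, no detection filter or the overall test dropped, with 0 to 2 higher and 1 to 3 lower over arrays. OSU/OSU at 15 dpf, 3 lower, gave 1 with loess alone and 2 to 4 over arrays. OSU/CW at 19 dpf, 2 lower, gave 0 with loess alone or the overall test dropped, 1 without the dye term and 0 to 3 over arrays. OSU/OSU at 19 dpf, 3 lower, gave 1 without background subtraction, with the centred values or the overall test dropped, 0 with loess alone and 0 to 4 over arrays. At 28 dpf, 1 higher in OSU/CW gave 0 without background subtraction, with loess alone, poor spots kept or the overall test dropped and 2 with loess and array medians, and 1 higher in OSU/OSU gave 0 without background subtraction, with loess alone, without the dye term or the overall test dropped, each 0 to 2 over arrays. CA038193 stayed called at 15 dpf in both genotypes under each scaling tried, but at 19 dpf it was lost in both with loess alone or the overall test dropped and in OSU/CW with the centred values.

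Differences that changed sign were that of CA769320 in OSU/OSU embryos at 15 dpf, 0.16 without background subtraction, and that of CB511332 in OSU/CW embryos at 28 dpf, -0.72 without male array 37 and 3.45 without male array 28. Pooled sex, genotype and interaction counts stayed at 0 under each alternative run for them. The genotype comparison is paired by array, and the fit on within-array differences also called 0 members. For sex and age, no paired analysis was possible because the replicate numbers are array numbers, which do not repeat across sexes or ages. Signals of 1.52 times background at 15 dpf limit what can be said of the dim features there.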
